A study of Mus musculus with 24 samples.

Results

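The genes described here are 48 mouse genes of ribosome biogenesis and the nucleolus, taken by name from a list that was drawn up with earlier results of these data known. Each name matched 1 row of the deposited table of 55385 genes, and all 48 were among the 12183 genes tested. They were read in P815, a mouse mastocytoma (mast cell tumour) line, in 8 groups of 3 libraries, 24 in all. SH cells were transfected with an Esr1-specific short hairpin RNA vector, and NC cells with the negative control vector. SH_E2 and NC_E2 cells were transfected likewise and also received β-estradiol (E2, the main natural estrogen) for 24 h. ICI and Tamo cells received ICI-182780 (fulvestrant) or tamoxifen, both antiestrogens, for 24 h, and ICI_E2 and Tamo_E2 cells received the same agents together with E2. All groups were kept in RPMI-1640 medium containing 10% fetal bovine serum, a source of hormones in itself. No dose and no vehicle group is labelled, no vector is named for the ICI and Tamo arms, and how many hairpin sequences were used is not stated. Nothing in the labels says that the 3 libraries of a group were separate cultures, so p-values measure the spread between these libraries, which may be technical.

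Esr1, the gene of estrogen receptor alpha and the target of the hairpin, was low throughout and did not pass the filter on low values. It averaged 0.246 ± 0.0572 FPKM (fragments scaled for transcript length and library depth; SD, n = 6) in the SH and SH_E2 libraries and 0.328 ± 0.0998 FPKM in the NC and NC_E2 libraries. The log2 difference of -0.38 did not pass an exact permutation test within E2 conditions (two-sided p = 0.145, smallest reachable p 0.005). Whether the hairpin lowered its target is therefore not shown by these values, and the SH libraries are described by their label. Mast cell markers were present: Kit, the receptor of stem cell factor, ran from 98.3 to 174.5 FPKM over the 24 libraries, Gata2 from 138 to 261 and Cpa3, a mast cell protease, from 134 to 586. Of the 14 mast cell markers, Ms4a2, Mcpt4 and Tpsb2 were low, with a highest value of 1.48 FPKM.

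Ribosomes are built in the nucleolus. RNA polymerase I transcribes a long precursor ribosomal RNA, which the small subunit processome, guided by the U3 small nucleolar RNA, folds and cuts, while box C/D and box H/ACA small nucleolar ribonucleoproteins (snoRNPs) guide its methylation and pseudouridylation. Further factors assemble the precursors of the large (60S) and small (40S) subunits and take them to the cytoplasm. Dividing and tumour cells are known for a large nucleolus and a high rate of this work, and growth signals act on many of its genes together. The 48 genes were grouped as RNA polymerase I transcription (4), small subunit processome and 40S maturation (16), box C/D snoRNP (3), box H/ACA snoRNP (4), 60S assembly (15) and nucleolar phosphoproteins and other nucleolar factors (6).

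All 48 genes were well expressed. On the FPKM scale, which allows for gene length, their mean levels over the 24 libraries had a median of 36.6, against 6.79 for all tested genes. Npm1, a histone and ribosome chaperone and the most abundant nucleolar phosphoprotein, was the highest at 663 FPKM (482 to 791). It was followed by Ncl, nucleolin, at 163 FPKM, by Nhp2, a box H/ACA core protein, at 150.5 FPKM and by Ddx21, an RNA helicase of the nucleolus, at 116 FPKM. The lowest were Rrp1b, a nucleolar partner of protein phosphatase 1, at 8.16 FPKM (5.65 to 9.48), Polr1e, an accessory subunit of RNA polymerase I, at 10.1 FPKM and Rrp8, an RNA methyltransferase, at 10.5 FPKM. Neighbours in this order often overlapped: Ncl ran from 105 to 197 FPKM and Nhp2 from 102 to 207. The ratio of the highest to the lowest library was 1.72 in the median gene, smallest in Pes1 (60.7 to 67.7 FPKM, ratio 1.12) and largest in Mrto4 (14.7 to 35.7 FPKM, ratio 2.43).

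**Figure D1:**
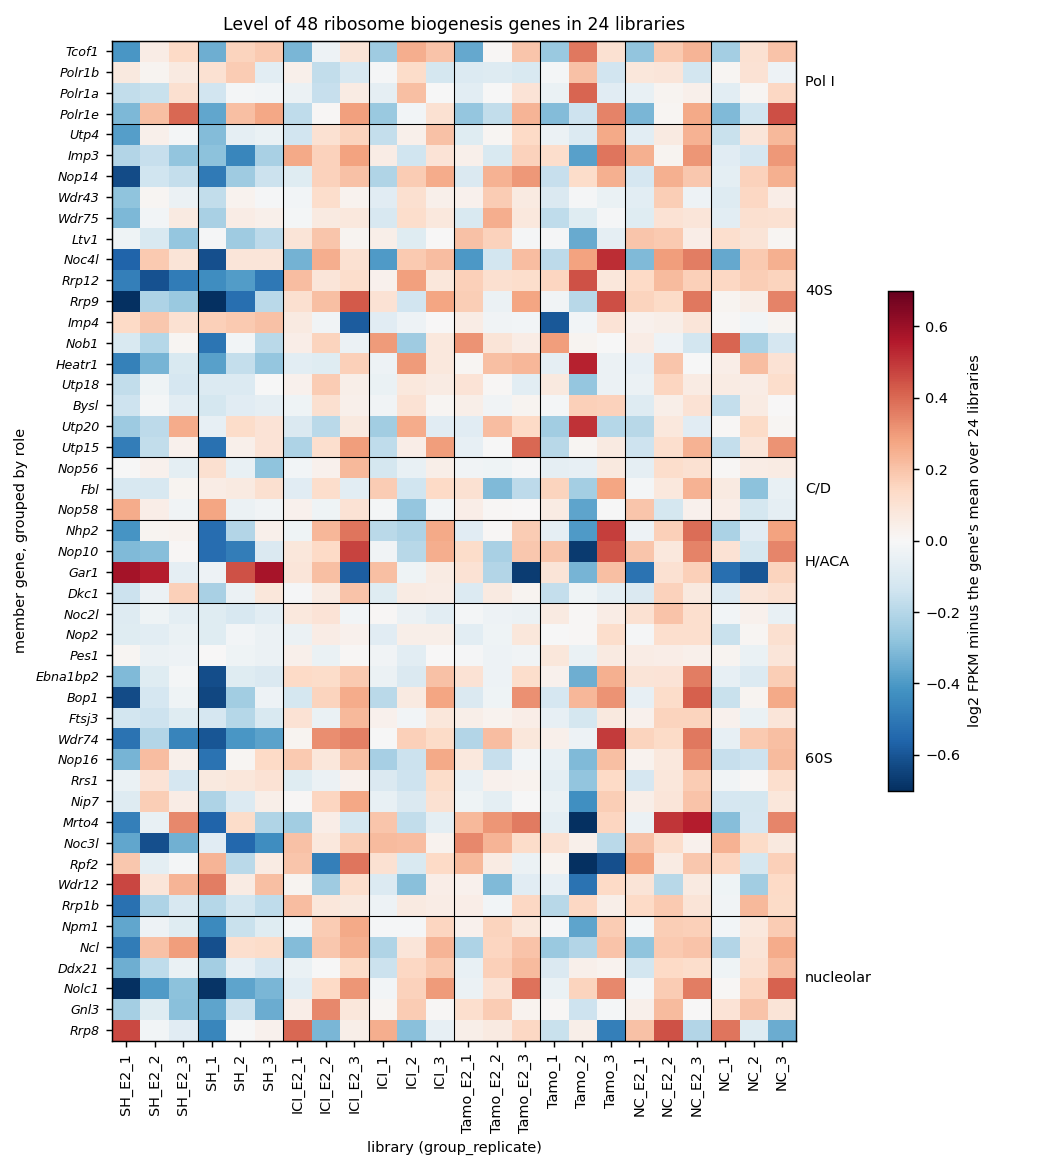
Level of each of the 48 genes (rows, grouped by role) in each of the 24 libraries (columns, group and replicate number), as log2 FPKM minus the gene's mean over all libraries; the colour scale ends at 0.7 either way. The SH_E2 and SH columns hold most of the deep blue cells, among them Nolc1, Rrp12, Rrp9 and Wdr74, and libraries numbered 1 are bluer than those numbered 3.

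Whether cells with the Esr1 hairpin differed from vector control cells was asked first without E2. Of the 48 genes 6 were lower in SH and 0 were higher (edgeR quasi-likelihood, adjusted p under 0.05 over all 12183 genes), where 9.07% of all tested genes passed, 4.15% as lower and 4.92% as higher. The 6 were Nolc1, Rrp9, Rrp12, Wdr74, Noc3l and Gnl3. An unadjusted p under 0.05 was found in 18 of the 48 and in 2546 of all 12183 tested genes. The list as a whole lay low: 43 of 48 log2 fold changes were negative, with a median of -0.20, against 49.9% negative and a median of 0.00 over all genes tested. With E2, where other libraries were compared, 10 genes were lower in SH_E2 than in NC_E2 and 0 were higher (9.59% of all tested genes passed, 4.28% as lower and 5.3% as higher), again with 43 negative and a median of -0.22. The 10 were Rrp12, Nolc1, Rrp9, Wdr74, Noc3l, Rrp1b, Gnl3, Ltv1, Ftsj3 and Noc2l, which include all 6 of those lower without E2. All 3 SH libraries lay below all 3 NC libraries in 16 of the 48 genes and above them in 1 (9.73% and 17.2% of all tested genes), and SH_E2 lay so against NC_E2 in 18 and 1 (10.3% and 16.1%). In bulk RNA, a lower level in every cell and a loss in some cells cannot be told apart.

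The numbers 1 to 3 of the titles paired the SH and NC libraries, whose deviations from the group means correlated at 0.164 to 0.337 in all 3 pairs. With the replicate number as a block, 18 of the 48 genes were lower in SH than in NC and 0 were higher, where 21.1% of all genes passed. The SH_E2 and NC_E2 pairs correlated at 0.097 to 0.329, and the block gave 23 lower and 0 higher (21.9% of all genes). For Bop1, Nop10 and Npm1 block values are given below only without E2. Values given without mention of the block ignore the number, and their SEs include the spread between numbers. The SE of Nolc1 without E2 was 0.17 without the block and 0.05 with it. Without the block, the count of 6 rested in part on single libraries, and was 3 genes without SH replicate 1 or without NC replicate 3. Rrp12, Noc3l and Gnl3 kept their calls when any single SH or NC library was left out. Shares of all genes in these fits are not given. The count of 10 with E2, also without the block, was 2 without SH_E2 replicate 1, 4 without NC_E2 replicate 3 and 5 without NC_E2 replicate 2.

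Nolc1, a phosphoprotein that binds box C/D and box H/ACA snoRNPs and moves between the nucleolus and Cajal bodies, had 59.9, 74.5 and 77.0 FPKM in SH and 57.7, 73.2 and 79.0 FPKM in SH_E2. It had 96.8, 107 and 128 FPKM in NC and 95.8, 109 and 124 FPKM in NC_E2. Every one of the 6 hairpin libraries lay below all the other 18, and the log2 fold change was -0.71 ± 0.17 (SE) without E2 (edgeR adjusted p = 0.00928) and -0.70 ± 0.17 with E2 (edgeR adjusted p = 0.0111). Rrp12, a factor that in yeast is needed for the export of both subunits, was the steadiest of the changes. It had 21.9, 22.5 and 20.9 FPKM in SH and 21.2, 19.4 and 21.02 FPKM in SH_E2, against 32.6, 33.3 and 32.9 FPKM in NC and 32.6, 34.4 and 33.1 FPKM in NC_E2. The 6 hairpin libraries again lay below the other 18, with -0.66 ± 0.09 without E2 (edgeR adjusted p = 4.14e-05) and -0.75 ± 0.09 with E2 (edgeR adjusted p = 9.14e-06). Nolc1 lost its call under 5 of 17 alternatives in each comparison, and Rrp12 passed under each of the 17 alternatives computed for either comparison.

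Rrp9, a protein of the U3 snoRNP at the centre of the small subunit processome, had 16.4, 18.7 and 23.5 FPKM in SH and 15.5, 23.1 and 22.4 FPKM in SH_E2. In NC it had 27.2, 27.6 and 34.2 FPKM and in NC_E2 30.0, 29.5 and 34.6 FPKM. All 6 hairpin libraries were below these 6, but SH replicate 3 (23.5 FPKM) was just above Tamo replicate 2 (23.4 FPKM). The log2 fold change was -0.66 ± 0.19 without E2 (edgeR adjusted p = 0.0372) and -0.67 ± 0.19 with E2 (edgeR adjusted p = 0.0323), and the call was lost under 9 of the 17 alternatives in each comparison. Wdr74, a WD-repeat protein of 60S assembly, had 29.7, 34.0 and 34.8 FPKM in SH and 31.5, 39.1 and 32.7 FPKM in SH_E2. It had 43.3, 51.1 and 52.1 FPKM in NC and 50.3, 49.5 and 58.2 FPKM in NC_E2. The hairpin and vector groups did not overlap, but SH_E2 replicate 2 (39.11 FPKM) was just above Tamo_E2 replicate 1 (39.06 FPKM). The log2 fold change was -0.63 ± 0.16 without E2 (edgeR adjusted p = 0.0131) and -0.66 ± 0.16 with E2 (edgeR adjusted p = 0.00968). The call of Wdr74 was lost under 5 of 17 alternatives without E2 and 4 with E2.

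The other genes that passed are outside the rule for named genes and were singled out after their values were seen. Noc3l, a nucleolar complex protein of 60S assembly in yeast, had 17.4, 12.5 and 13.5 FPKM in SH and 14.2, 11.97 and 14.5 FPKM in SH_E2. It had 21.7, 20.1 and 19.2 FPKM in NC and 21.2, 20.0 and 18.7 FPKM in NC_E2 (log2 fold changes -0.55 ± 0.11 and -0.61 ± 0.11). Gnl3, nucleostemin, a nucleolar GTPase known from stem and tumour cells, had 18.5, 21.6 and 18.8 FPKM in SH and 20.3, 22.5 and 19.5 FPKM in SH_E2. The values of Gnl3 in NC were 25.6, 27.4 and 25.5 FPKM and those in NC_E2 24.5, 27.9 and 23.9 FPKM (log2 fold changes -0.47 ± 0.10 and -0.34 ± 0.10). Neither gene overlapped between hairpin and vector libraries. Both overlapped with an antiestrogen library: Noc3l had 16.1 FPKM in Tamo replicate 3, below SH replicate 1. Gnl3 had 21.7 FPKM in Tamo replicate 2, below SH_E2 replicate 2. The call of Noc3l was lost under 3 of 17 alternatives without E2 and 1 with E2, and that of Gnl3 under 3 without E2 and 11 with E2. The 4 genes that passed with E2 but not without it were lower in SH_E2, Rrp1b by -0.46 ± 0.11 on the log2 scale, Ltv1, a 40S assembly factor, by -0.33 ± 0.10, Ftsj3, an RNA methyltransferase of the nucleolus, by -0.29 ± 0.08, and Noc2l, another nucleolar complex protein, by -0.25 ± 0.06. Their calls were lost under 5 (Rrp1b), 13 (Ltv1), 12 (Ftsj3) and 7 (Noc2l) of 17 alternatives. Without E2 these 4 stood at -0.34, -0.28, -0.22 and -0.13. The difference between the changes with and without E2 passed for 0 of the 48 genes (edgeR), and 0 of all genes tested passed. An unadjusted p under 0.05 was found in 0 of the 48 and in 139 of all 12183 genes. DESeq2 and limma also called 0 of the 48.

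**Figure D2:**
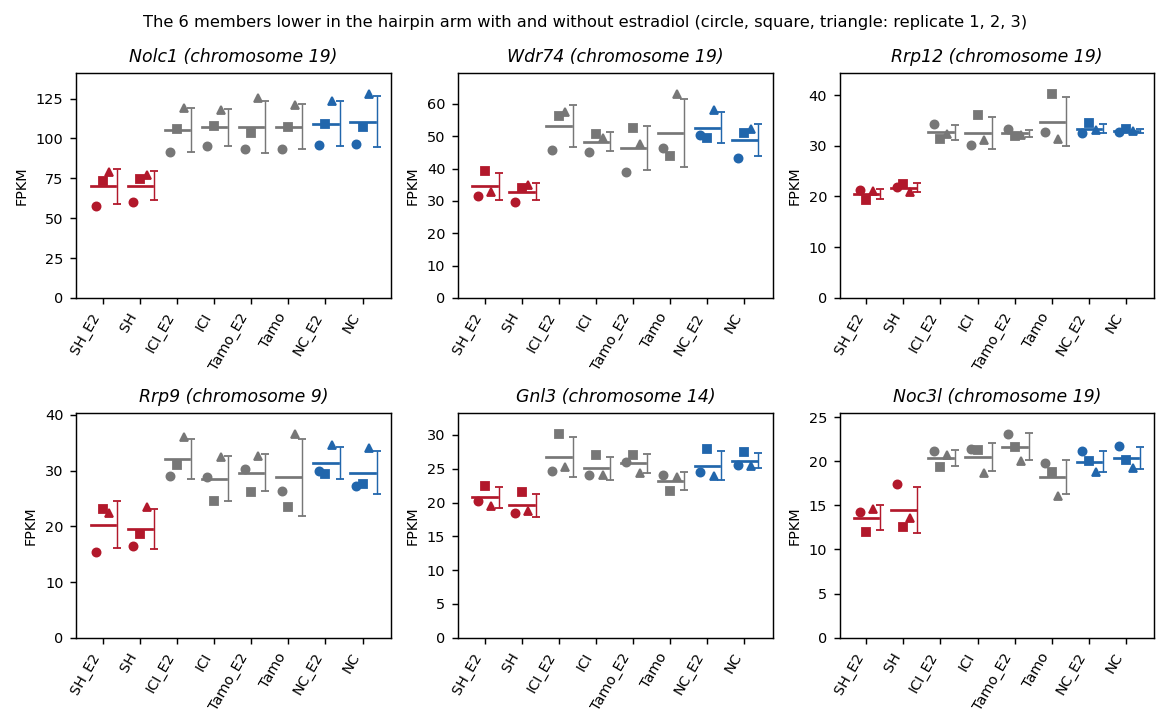
FPKM of Nolc1, Wdr74, Rrp12, Rrp9, Gnl3 and Noc3l in every library (circle, square and triangle for replicates 1, 2 and 3; horizontal bar, group mean; vertical bar, SD, n = 3) for SH_E2, SH, the 4 antiestrogen groups, NC_E2 and NC. In each panel the 6 red hairpin points lie below the 6 blue vector points, and the grey antiestrogen groups stand near the vector groups.

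Read over both E2 conditions at once, a comparison added after the data were seen, 19 of the 48 genes were lower in the SH arm than in the NC arm and 0 were higher, where 20.7% of all tested genes passed and 10% passed as lower. Set against the ICI and Tamo arms, which hold no NC library but share the SH libraries with that comparison, 20 of the 48 were lower and 1, Wdr12, was higher (28.2% of all genes passed, 13.4% as lower). In 13 genes all 6 hairpin libraries lay below all 6 vector libraries (5.01% of all tested genes did so) and in 1 gene, Imp4, above them (8.82%). In 3 genes, Nolc1, Rrp12 and Heatr1, they lay below all 18 other libraries (2.91%).

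The counts are given next by role, with no test between roles, from the fit without the block unless it is named. With the block, over both arms, 1 of the 4 RNA polymerase I genes and 13 of the 16 processome and 40S genes were lower. In the same fit 0 of 3 box C/D, 3 of 4 box H/ACA, 9 of 15 60S assembly and 4 of 6 other nucleolar genes were lower. Of all 12183 tested genes 35.2% passed there, 2067 of them as lower. None of the 4 RNA polymerase I genes passed in either condition, and their median log2 fold change was -0.05 without E2 and -0.07 with E2. Polr1a, the catalytic subunit, ran from 10.2 to 12.4 FPKM in the SH arm (median 10.9), against 10.9 to 12.7 FPKM in the NC arm (median 11.6). Polr1b, the second largest subunit, ran from 17.1 to 20.4 FPKM in the SH arm and from 16.5 to 19.3 FPKM in the NC arm. The change of Polr1a was -0.14 ± 0.12 and that of Polr1b -0.01 ± 0.09 without E2, with 95% intervals of -0.38 to 0.09 and -0.19 to 0.17.

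Of the 16 small subunit processome and 40S maturation genes, 2 were lower without E2 (Rrp12 and Rrp9) and 3 with E2 (also Ltv1), which is 12.5% and 18.8% of them against 9.07% and 9.59% of all tested genes, with medians of -0.25 in both and 15 of 16 negative in both. Heatr1, a large scaffold protein of the processome that is also needed for polymerase I transcription, had 17.6, 20.5 and 19.1 FPKM in SH and 16.6, 18.3 and 21.3 FPKM in SH_E2. It had 23.7, 26.7 and 24.6 FPKM in NC and 22.1, 26.3 and 23.0 FPKM in NC_E2. None of the hairpin libraries reached a vector library, yet the changes of -0.45 ± 0.15 and -0.39 ± 0.15 did not pass (edgeR adjusted p = 0.0602 and 0.104). With replicate number as a block Heatr1 passed without E2 (-0.45 ± 0.10, edgeR adjusted p = 0.00389) and with E2 (-0.39 ± 0.10, edgeR adjusted p = 0.00986). Without the block it passed in the comparison of both arms (-0.42 ± 0.10, edgeR adjusted p = 0.00543). Imp3 and Imp4, partners in a U3 snoRNP subcomplex and singled out after their values were seen, stood on opposite sides. Imp3 had 45.4 to 55.7 FPKM in the SH arm and 57.5 to 77.2 FPKM in the NC arm, and Imp4 had 27.3 to 29.2 FPKM in the SH arm and 25.1 to 27.0 FPKM in the NC arm. Imp3 did not pass in either condition without the block (-0.43 ± 0.16 and -0.46 ± 0.16). With the block it passed without E2 (-0.42 ± 0.12, edgeR adjusted p = 0.0140) and with E2 (-0.45 ± 0.12, edgeR adjusted p = 0.00928). The Imp4 change over both arms, 0.08 ± 0.10, did not pass, and Imp4 was lowest in Tamo replicate 1 (16.8 FPKM) and ICI_E2 replicate 3 (16.98 FPKM).

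None of the 3 box C/D core genes passed. Fbl, fibrillarin, the methyltransferase of the box C/D snoRNP, ran from 50.2 to 58.8 FPKM in the SH arm and from 44.5 to 64.3 FPKM in the NC arm. Nop56, a box C/D scaffold protein, ran from 53.2 to 69.8 FPKM in the SH arm and from 61.8 to 70.3 FPKM in the NC arm. These groups overlapped, and the Nop56 changes of -0.16 ± 0.10 and -0.12 ± 0.10 did not pass. Among the 4 box H/ACA genes none passed in either condition without the block. Nop10, the smallest core protein, was singled out after its values were seen, at -0.54 ± 0.23 without E2 (edgeR adjusted p = 0.165) and -0.45 ± 0.23 with E2 (edgeR adjusted p = 0.254). Blocking on replicate number, Nop10 passed without E2 (-0.54 ± 0.14, edgeR adjusted p = 0.01003). Without the block it passed over both arms (-0.50 ± 0.16, edgeR adjusted p = 0.0318), the only box H/ACA gene to pass in that fit. With the block 3 of the 4 were lower over both arms. Dkc1, dyskerin, the pseudouridine synthase, ran from 30.4 to 39.9 FPKM in the SH arm and from 33.1 to 39.8 FPKM in the NC arm, and 95% intervals of its change were -0.37 to 0.07 without E2 and -0.32 to 0.12 with E2. Gar1, a box H/ACA core protein singled out after its values were seen, had the highest log2 fold changes of the 48, at 0.58 ± 0.27 and 0.38 ± 0.27 (edgeR adjusted p = 0.224 and 0.470), with 37.9 to 59.3 FPKM in the SH arm and 26.1 to 44.3 FPKM in the NC arm.

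Of the 15 genes of 60S assembly, 2 were lower without E2 (Wdr74 and Noc3l, median -0.13) and 5 with E2 (also Rrp1b, Ftsj3 and Noc2l, median -0.25). This is 13.3% and 33.3% of them, against 9.07% and 9.59% of all tested genes, and 14 of 15 were negative in both. Bop1, Pes1 and Wdr12 form one complex that binds the large subunit precursor, and the 3 differed. Bop1 had 32.7, 43.0 and 49.6 FPKM in SH and 32.9, 46.9 and 49.8 FPKM in SH_E2, against 45.7, 51.4 and 61.2 FPKM in NC and 48.9, 55.7 and 67.9 FPKM in NC_E2. Within each replicate number its hairpin library was below its vector library, while across numbers the groups overlapped. The change did not pass without the block (-0.39 ± 0.20, edgeR adjusted p = 0.288) and passed with it in the pairs without E2 (-0.40 ± 0.07, edgeR adjusted p = 0.000397). Pes1 stood at 62.0 to 64.6 FPKM in the SH arm and 62.0 to 67.7 FPKM in the NC arm, with 95% intervals of -0.23 to 0.03 and -0.24 to 0.01. Wdr12 stood at 12.6 to 16.8 FPKM in the SH arm and 10.2 to 13.4 FPKM in the NC arm, and passed against the antiestrogen arms (0.27 ± 0.10, edgeR adjusted p = 0.0438) but not against the NC arm (0.21 ± 0.11, edgeR adjusted p = 0.223). With replicate number as a block Wdr12 passed as higher against the NC arm, and did not pass in either E2 condition alone. Rrs1, which with Rpf2 brings the 5S ribonucleoprotein into the large subunit, ran from 36.9 to 42.9 FPKM in the SH arm and from 36.9 to 45.3 FPKM in the NC arm, and did not pass.

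Of the 6 nucleolar phosphoproteins and other factors, Nolc1 and Gnl3 were lower in both conditions, 33.3% of them against 9.07% and 9.59% of all tested genes. All 6 changes were negative, with medians of -0.33 and -0.30. Npm1 had 482, 589.6 and 621 FPKM in SH and 511, 642 and 621 FPKM in SH_E2. Its NC libraries had 648, 692 and 743 FPKM and its NC_E2 libraries 651, 741 and 739.7 FPKM. All 6 hairpin libraries were below the 6 vector libraries. The changes of -0.36 ± 0.14 and -0.31 ± 0.14 did not pass in either condition (edgeR adjusted p = 0.134 and 0.194). With replicate number as a block Npm1 passed without E2 (-0.36 ± 0.11, edgeR adjusted p = 0.0205), and without the block it passed over both arms (-0.34 ± 0.10, edgeR adjusted p = 0.0199). Ncl had 105 to 197 FPKM in the SH arm and 132 to 193 FPKM in the NC arm, which overlapped, and did not pass in any comparison with NC.

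**Figure D3:**
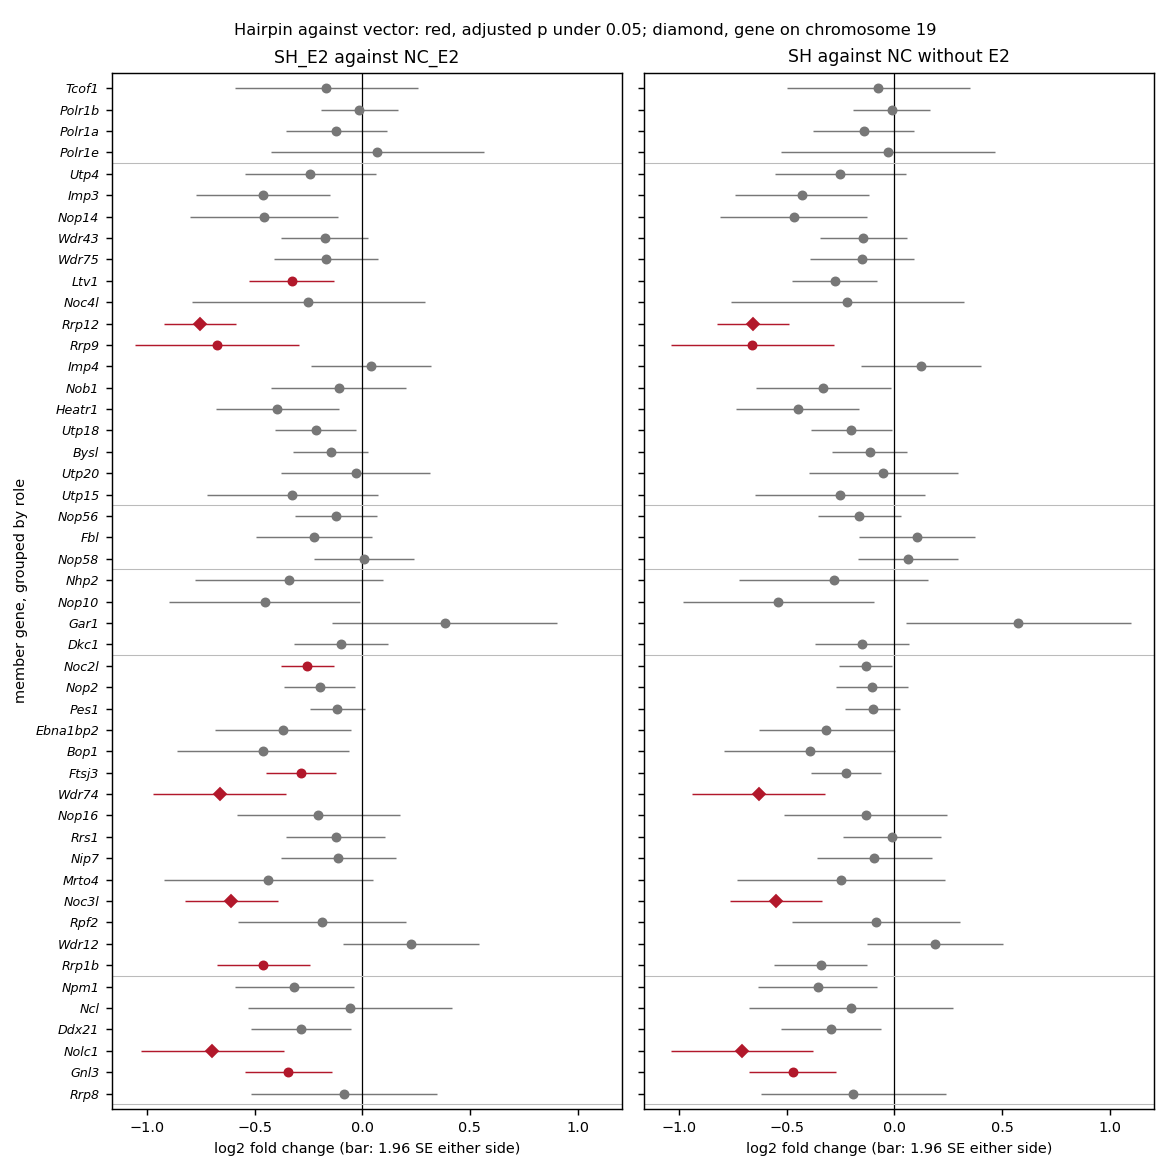
Log2 fold change of each of the 48 genes in SH_E2 against NC_E2 and in SH against NC, with 95% intervals as bars; red marks genes at an adjusted p under 0.05 and diamonds genes on chromosome 19. Most points lie left of 0 in both panels, the 4 chromosome 19 genes lie between -0.75 and -0.55, and Gar1 and Wdr12 lie to the right.

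A further 140 genes of the same pathway were listed, of which 133 were tested. In SH against NC 9 were lower and 2 higher, with a median log2 fold change of -0.15 and 105 of 133 negative; 8.27% passed, against 9.07% of all tested genes. In SH_E2 against NC_E2 9 were lower and 2 higher, with a median of -0.16 and 110 of 133 negative; 8.27% passed, against 9.59% of all tested genes. Among those that passed, the lowest without E2 were Utp23, a processome protein (-0.56 ± 0.17), Rcl1, an RNA cleavage factor (-0.52 ± 0.12), and Utp14a, another processome protein (-0.49 ± 0.11). With E2 the lowest that passed were Utp23 (-0.83 ± 0.17), Rcl1 (-0.57 ± 0.12) and Exosc1, a subunit of the RNA exosome (-0.45 ± 0.11). The 2 that rose in both conditions were Znhit6, a snoRNP assembly factor (0.50 ± 0.11 without E2 and 0.51 ± 0.11 with E2), and Rpf1, a 60S assembly protein (0.44 ± 0.13 without E2 and 0.54 ± 0.13 with E2). The 14 tested exosome genes had medians of -0.03 in both conditions, with 1 of 14 lower, Exosc1.

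Position in the genome moved with these values. All 4 of the 48 genes that lie on chromosome 19 were lower in both conditions: Nolc1 (chr19:46075863-46085528, GRCm38, plus strand), Rrp12 (chr19:41862851-41896173, minus strand), Noc3l (chr19:38788128-38819237, minus strand) and Wdr74 (chr19:8735827-8740624, plus strand). The 450 tested genes of chromosome 19 had a median log2 fold change of -0.32 in SH against NC and -0.35 in SH_E2 against NC_E2, and 19.1% and 20.7% of them were lower. Rcl1 and Exosc1 also lie there. Among the 44 genes on other chromosomes, 2 (Rrp9 on chromosome 9 and Gnl3 on chromosome 14) were lower without E2 and 6 with E2. Of all 11733 tested genes off chromosome 19, 3.57% were lower without E2 and 3.66% with E2. Of these 44, 39 were negative in each condition, with medians of -0.18 and -0.20, against 0.01 for all genes off chromosome 19 in each. Gar1, the only one of the 48 on chromosome 3, and Znhit6 and Rpf1, also on chromosome 3, were high where the 597 tested genes of that chromosome had medians of 0.13 and 0.12. Other pathway genes of chromosome 3 were not. Spata5, listed under 60S assembly, was lower in the SH arm than in the NC arm (-0.31 ± 0.08, edgeR adjusted p = 0.00564). Wdr3, Nmd3, Exosc8 and Exosc9 did not pass in that comparison. The part of chromosome position in the lower values of Nolc1, Rrp12, Noc3l and Wdr74 was not tested.

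**Figure D4:**
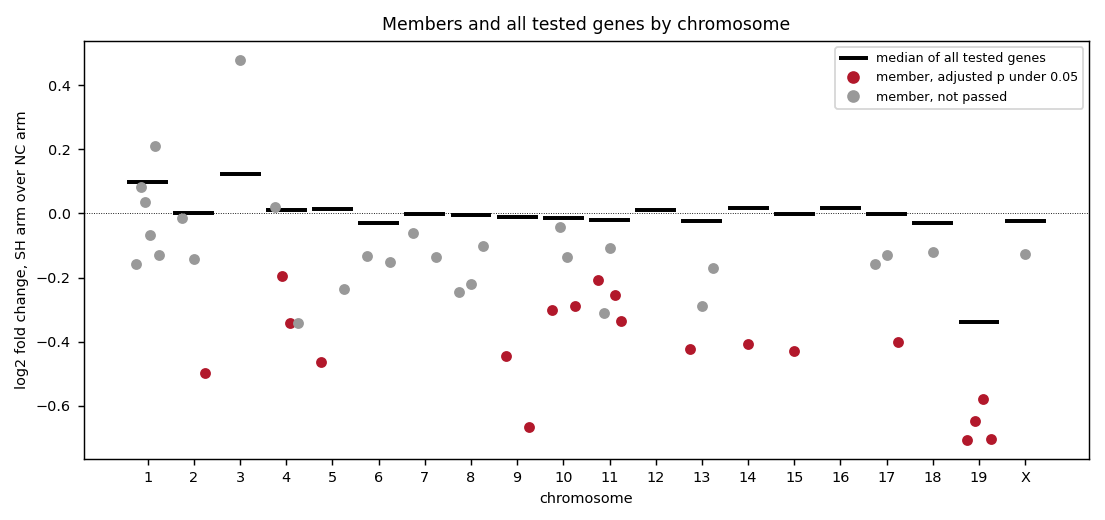
Log2 fold change of the SH arm over the NC arm (both E2 conditions) for the 48 genes (points, red at an adjusted p under 0.05) by chromosome, with the median of all tested genes of each chromosome as a black bar. The bar of chromosome 19 lies at -0.34 with its 4 points below it, and the single point of chromosome 3, Gar1, lies highest.

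Markers of other cells moved with the hairpin too. The summed FPKM of 5 macrophage markers was 29.7 to 33.8 in SH and 31.2 to 36.1 in SH_E2, against 23.4 to 26.0 in NC and 22.4 to 25.2 in NC_E2. Of these Csf1r and Cd14, which define the type, were at or near 0 in all libraries (highest 0.168 FPKM), and Cd68 and Lyz2 carried the sum. The sum of 5 fibroblast markers was 13.6 to 25.8 in SH and 13.8 to 23.7 in SH_E2, against 8.67 to 13.0 in NC and 8.17 to 9.94 in NC_E2, nearly all of it Pdgfrb, while Dcn was at 0 or near it. The summed mast cell markers were 1029 to 1225 FPKM in SH and 1079 to 1247 FPKM in SH_E2, against 819.5 to 1053 FPKM in NC and 845 to 1076 FPKM in NC_E2. T cell and B cell markers, other than Lck at up to 1.89 FPKM, were at or near 0 in every library. The part of these differences in the lower ribosome biogenesis genes was not tested.

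Promoter windows were read because the genes that fell together could share letters at their starts. RefSeq windows of GRCm38.p6, from 250 bases before to 50 after each annotated start, were matched for 42 of the 48 genes, and 2 motifs were searched on both strands. CACGTG, the canonical E-box, which is a case of the looser motif CANNTG, was found in 9 of the 42 (21.4%). It was found in 19.1% of 110 other pathway genes, in 12.4% of 8240 tested genes and in 8.09% of all 27025 genes with a RefSeq window. CANNTG was found in 61.9% of the 42 and in 66.3% of the tested genes. Of the 6 genes lower in both conditions, Rrp12 had no entry, and the other 5 windows hold no CACGTG. They are shown with those of Ltv1 and Utp18, lower over both arms, which hold 1 each. Letters are in lower case, 5′ to 3′ on the gene's strand, and capitals mark CACGTG. The Rrp9 window starts inside the gene as the deposited table places it (chr9:106475963-106485424).
Nolc1 (chr19:46075597-46075896, plus strand): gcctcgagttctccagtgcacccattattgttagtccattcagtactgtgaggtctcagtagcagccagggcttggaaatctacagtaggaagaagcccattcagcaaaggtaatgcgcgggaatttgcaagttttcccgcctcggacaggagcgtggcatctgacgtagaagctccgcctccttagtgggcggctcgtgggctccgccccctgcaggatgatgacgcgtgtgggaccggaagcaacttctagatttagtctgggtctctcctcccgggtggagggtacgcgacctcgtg
Noc3l (chr19:38819188-38819487, minus strand): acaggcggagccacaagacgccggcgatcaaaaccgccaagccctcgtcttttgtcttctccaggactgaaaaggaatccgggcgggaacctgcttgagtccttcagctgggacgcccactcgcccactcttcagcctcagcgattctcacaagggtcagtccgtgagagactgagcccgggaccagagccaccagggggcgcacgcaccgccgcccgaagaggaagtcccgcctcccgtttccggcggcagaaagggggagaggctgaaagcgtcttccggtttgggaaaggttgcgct
Wdr74 (chr19:8735589-8735888, plus strand): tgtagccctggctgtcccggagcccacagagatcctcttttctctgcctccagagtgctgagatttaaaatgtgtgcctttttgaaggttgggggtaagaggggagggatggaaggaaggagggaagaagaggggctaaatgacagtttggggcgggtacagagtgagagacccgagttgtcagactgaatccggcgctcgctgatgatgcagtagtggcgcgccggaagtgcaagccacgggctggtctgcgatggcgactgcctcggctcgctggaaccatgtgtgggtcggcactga
Rrp9 (chr9:106477059-106477358, plus strand): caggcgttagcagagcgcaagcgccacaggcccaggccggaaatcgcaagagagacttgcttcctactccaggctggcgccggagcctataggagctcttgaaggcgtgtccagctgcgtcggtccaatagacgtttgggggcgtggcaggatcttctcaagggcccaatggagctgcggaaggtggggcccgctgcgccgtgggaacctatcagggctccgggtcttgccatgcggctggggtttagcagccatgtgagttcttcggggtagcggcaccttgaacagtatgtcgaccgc
Gnl3 (chr14:31019082-31019381, minus strand): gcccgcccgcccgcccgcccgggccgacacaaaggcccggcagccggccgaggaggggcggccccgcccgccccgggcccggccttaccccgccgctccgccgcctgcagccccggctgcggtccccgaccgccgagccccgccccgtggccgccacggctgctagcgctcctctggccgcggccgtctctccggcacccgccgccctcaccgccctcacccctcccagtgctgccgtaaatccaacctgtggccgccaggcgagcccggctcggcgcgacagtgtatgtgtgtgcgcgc
Ltv1 (chr10:13193088-13193387, minus strand): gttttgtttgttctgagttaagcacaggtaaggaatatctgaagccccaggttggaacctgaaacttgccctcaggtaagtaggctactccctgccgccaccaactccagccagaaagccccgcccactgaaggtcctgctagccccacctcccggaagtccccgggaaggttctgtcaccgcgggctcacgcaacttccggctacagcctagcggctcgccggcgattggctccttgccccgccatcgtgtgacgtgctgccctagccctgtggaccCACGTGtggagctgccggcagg
Utp18 (chr11:93885717-93886016, minus strand): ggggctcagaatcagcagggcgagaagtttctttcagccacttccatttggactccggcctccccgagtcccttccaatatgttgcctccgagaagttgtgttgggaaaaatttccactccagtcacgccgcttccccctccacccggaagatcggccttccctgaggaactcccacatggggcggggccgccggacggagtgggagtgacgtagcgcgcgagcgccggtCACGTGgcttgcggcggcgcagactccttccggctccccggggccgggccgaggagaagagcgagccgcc

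In the comparison of the SH arm with the NC arm, the 9 genes with CACGTG had log2 fold changes from -0.30 to 0.08 with a median of -0.15, and 2 of them passed as lower. The 33 with a window but without it ran from -0.70 to 0.48 with a median of -0.24, and 14 of them passed as lower. Of all tested genes 10% passed as lower in this comparison. These 33 include Nolc1, Noc3l and Wdr74 of chromosome 19, where 40.4% of the 450 tested genes were lower. The genes with and without CACGTG were not tested against each other. A match is a run of letters and not a measured binding site.

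E2 itself moved none of the 48 genes past the threshold. In each of the 4 arms, and in the mean of the 4, 0 of 48 passed (edgeR; 0.0575% of all genes passed for the mean, 0.0492% as higher, and 0% in any single arm; with the replicate block 0 of 48 and 0.0246% of all genes passed in the Tamo arm). By unadjusted p under 0.05 there were 1 in NC, 0 in SH, 0 in ICI, 3 in the Tamo arm and 1 in the mean. Of all 12183 tested genes it was 244, 163, 224, 434 and 295, in the same order. DESeq2 and limma also called 0 of the 48. The mean E2 change over the arms had a median of 0.03 over the 48 and ran from -0.08 (Tcof1, treacle, a polymerase I cofactor) to 0.23 (Mrto4, a 60S assembly factor). It was positive in 36 of the 48 and in 5954 of all 12183 tested genes. Across the 48 it went with transcript length (Spearman rho -0.40, a description). In single arms rho was -0.50 in NC, -0.45 in SH, -0.37 in ICI and 0.13 in Tamo. The 95% interval of the mean E2 change lay within 0.5 on the log2 scale for all 48. The E2 change of Nolc1 was -0.02 ± 0.17 in NC and -0.01 ± 0.17 in SH. Npm1 had 651, 741 and 739.7 FPKM in NC_E2 and 648, 692 and 743 FPKM in NC, a log2 fold change of 0.03.

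Neither antiestrogen moved the genes past the threshold. In ICI against NC and in Tamo against NC 0 of 48 passed (0.00821% of all genes in each), with 0 and 1 at an unadjusted p under 0.05. In the presence of E2 it was 0 of 48 for both (0% of all genes), with 0 and 1. Of all 12183 tested genes, 119 and 430 had an unadjusted p under 0.05 without E2, and 175 and 301 with E2. DESeq2 and limma called 0 of the 48 in all of these. Medians over the 48 were -0.03 for ICI, -0.03 for Tamo, 0.00 for ICI_E2 and -0.05 for Tamo_E2 against their vector groups. All 48 intervals lay within 1 on the log2 scale in each, so larger changes than that are outside the 95% intervals and smaller ones are not. Nolc1 had 95.1, 108 and 118 FPKM in ICI and 93.2, 107 and 121 FPKM in Tamo, against 96.8, 107 and 128 FPKM in NC. Rrp12 had 30.1, 36.1 and 31.2 FPKM in ICI and 32.8, 40.3 and 31.2 FPKM in Tamo, against 32.6, 33.3 and 32.9 FPKM in NC. These groups overlap, unlike the hairpin groups.

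ICI and Tamo were also set against each other without E2, and 0 of 48 genes passed (0% of all genes). An unadjusted p under 0.05 was found in 392 of all 12183 tested genes and in 1 of the 48. That gene was Rpf2, the partner of Rrs1, singled out after its values were seen. It had 16.6, 14.3 and 17.0 FPKM in ICI, against 15.6, 8.89 and 10.1 FPKM in Tamo, and 17.1, 14.1 and 17.3 FPKM in NC. Its log2 difference was 0.46 ± 0.20, with a 95% interval of 0.07 to 0.85, and did not pass. The difference of the E2 change from that in NC passed for 0 of 48 genes in ICI and 0 of 48 in Tamo. By unadjusted p under 0.05 there were 0 and 1 of the 48, and 132 and 495 of all 12183 tested genes.

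Across the libraries the 48 genes varied with the replicate number of the titles, and the labels do not say what the number marks. Libraries numbered 1 had the lowest summed share of the 48 in 7 of the 8 groups, between 0.951% and 1.13% of all counts, and those numbered 3 the highest in all 8, between 1.14% and 1.31%. Shares averaged 1.07% ± 0.104 in SH and 1.095% ± 0.115 in SH_E2 (SD, n = 3 each), against 1.21% ± 0.0931 in NC and 1.24% ± 0.0980 in NC_E2. The ranges of the arms overlapped, while within each number the hairpin library was the lower. Within numbers 1, 2 and 3 the median log2 difference over the 48 genes was -0.22, -0.15 and -0.22 for SH minus NC and -0.27, -0.20 and -0.27 for SH_E2 minus NC_E2, with 36 to 42 of 48 negative.

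**Figure D5:**
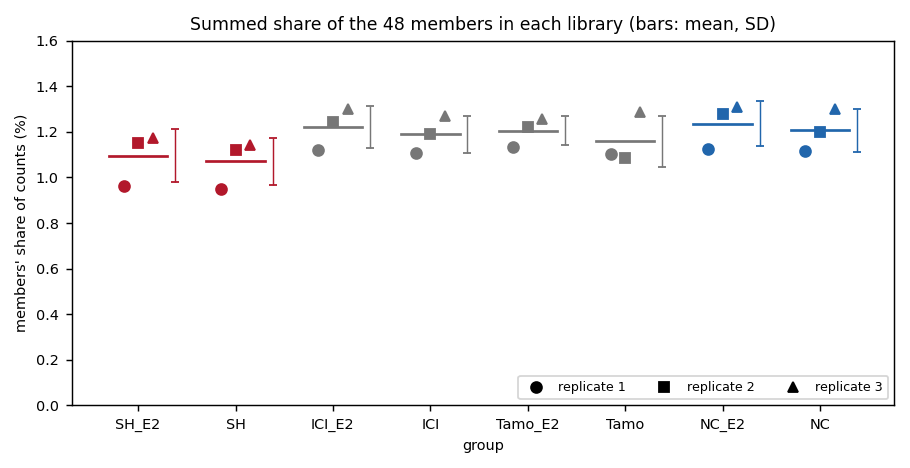
Summed share of the 48 genes in the counts of each library, in percent, by group (circle, square and triangle for replicates 1, 2 and 3; horizontal bar, mean; vertical bar, SD, n = 3). The share runs from 0.951% in SH replicate 1 to 1.31% in NC_E2 replicate 3, and libraries numbered 1 lie lowest in every group except Tamo.

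In a fit with the replicate number, libraries numbered 1 were lower than those numbered 2 and 3 in 24 of the 48 genes and higher in 4, where 44.1% of all tested genes passed, 21.5% as lower and 22.6% as higher. The lowest were Noc4l, a processome protein (-0.62 ± 0.05), Ncl (-0.51 ± 0.05), Tcof1 (-0.48 ± 0.03) and Polr1e (-0.46 ± 0.06). Those higher in libraries numbered 1 were Rpf2 (0.23 ± 0.08), Nop58, a box C/D scaffold protein (0.14 ± 0.05), Noc3l (0.14 ± 0.04) and Wdr12 (0.12 ± 0.05). Of the 6 genes lower in SH, Nolc1 (-0.33 ± 0.03), Wdr74 (-0.25 ± 0.06) and Rrp9 (-0.20 ± 0.07) were also lower in libraries numbered 1, and Rrp12 (-0.04 ± 0.04) and Gnl3 (-0.08 ± 0.04) did not pass.

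Within groups the genes moved partly together. Over the 24 libraries, the deviations from the group means of 2 of the 48 genes had a median Pearson correlation of 0.28 (1128 pairs, from -0.92 to 0.98), as a description of libraries that share a replicate number, depth and preparation. The genes closest to the mean of the other 47 were Utp4, a processome protein (0.96), Nhp2 (0.95), Polr1e (0.95), Ncl (0.94) and Nolc1 (0.92), and the farthest was Noc3l (-0.74). Their spread within groups, a median SD of 0.18 on the log2 scale, was near that of tested genes in the same range of levels (0.20).

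Deviations of some libraries from their group mean went with transcript length. Those of Tamo replicate 2 followed transcript length over the 48 genes (Spearman rho 0.62) as they did over 9931 genes with a length (rho 0.58), a description across genes, which are not independent. The same rho over the 48 genes was 0.49 in ICI replicate 2, -0.42 in Tamo replicate 1 and -0.47 in Tamo replicate 3. Deviations within a group cancel out by construction, so the values of Tamo replicates 1 and 3 are tied to that of replicate 2. In Tamo replicate 2 the short transcripts Nop10 (37.9 FPKM, against 68.8 and 81.8 in the other Tamo libraries), Mrto4 (14.7 FPKM, against 23.3 and 27.1) and Npm1 (509 FPKM, against 654 and 743) were low. The long ones Heatr1 (33.4 FPKM, against 22.0 and 22.3), Utp20 (19.6 FPKM, against 11.6 and 11.996) and Polr1a (15.2 FPKM, against 11.1 and 10.9) were high. The longest of the 48, Wdr12 (8.49 FPKM, against 11.7 and 13.4) and Nop58 (28.7 FPKM, against 38.5 and 36.9), were low there.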

How the data were processed

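Total RNA of 24 P815 libraries (8 groups of 3, grouped by their labels) was sequenced on Illumina libraries. The authors deposited 1 table with estimated counts and FPKM per gene, per the file headers; cutadapt, HISAT2 and build GRCm38 are named, without versions, in the submitters' processing notes, and neither the counting tool nor the strand setting is stated there or in the labels. The deposited estimated counts pile up at 4 and 8 (16.2% and 9.11% of values from 1 to 40), so a count is not a single fragment, and they were rounded before testing. Library totals were 42.1 M to 68.8 M (median 54.2 M).

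Genes at 1 FPKM or more in at least 3 libraries (12183) were tested with edgeR 4.0.16 (R 4.3.3; TMM, quasi-likelihood, 1 coefficient per group, all libraries, Benjamini-Hochberg over all genes, threshold 0.05). SE is the fold change divided by the root of F. Esr1, below the filter, was tested by exact permutation of its log2 FPKM. Spearman correlations were computed with scipy 1.17.1. Alternatives used DESeq2 1.42.0 and limma 3.58.1. Steps were tested on simulated data. Same-numbered libraries of SH and NC all correlated in their deviations (0.164 to 0.337), so these were taken as paired by that check of the data. The labels do not say what the number marks. The main fit did not use the number, and fits with it as a block are named as such.

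The members and lists were chosen with earlier results of these data known. Named genes were, per comparison, at most 4 rising and 4 falling with the largest change among those passing, and always Polr1a, Polr1b, Heatr1, Fbl, Nop56, Dkc1, Bop1, Pes1, Rrs1, Ncl and Npm1; others were singled out after their values were seen. Rrp9, Gnl3, Bop1, Heatr1, Dkc1, Nop56, Nop58, Nhp2, Rrp8 and Bysl overlap other genes, whose reads cannot be told apart if strand was not used. Promoter windows were credited to RefSeq.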

Additional observations from a re-analysis of the deposited data

Results flagged for a closer look

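Noc2l, a nucleolar complex protein, had E2 differences of opposite sign in the NC and Tamo arms, with no overlap between libraries in either, and passed in neither. Libraries were all higher with E2 in NC for 442 of 12183 tested genes and for 2 of the 48, and all lower with E2 in Tamo for 360 tested genes and for 1 of the 48. It had 78.7, 84.0 and 79.1 FPKM in NC_E2, against 72.1, 74.5 and 70.4 FPKM in NC, a log2 fold change of 0.1525. It had 72.4, 71.2 and 71.1 FPKM in Tamo_E2, against 76.3, 73.6 and 75.6 FPKM in Tamo, a log2 fold change of -0.07147. The test of the difference between the E2 changes gave -0.22 ± 0.09, which did not pass over all genes.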

How the results depend on the processing

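Counts of genes called depended on the fit. In SH against NC (6 called) the count was 18 with the replicate block, 11 by DESeq2, 2 with the libraries compared alone, 2 and 1 without replicate 2 or replicate 3 of every group, 2 off chromosome 19, and 3 to 7 with single libraries left out. In SH_E2 against NC_E2 (10 called) it was 23 with the replicate block, 5 without the filter, 3 with the libraries compared alone, 4, 3 and 2 without replicate 1, 2 or 3 of every group, 6 off chromosome 19, and 2 to 8 with single libraries left out. The SH arm against the NC arm (19 called) gave 31 with the block (30 lower and 1 higher) and 9 without replicate 3 of every group. Against the ICI and Tamo arms (21 called) it gave 32 with the block (31 lower and 1 higher), 13 without replicate 1 and 10 without replicate 3 of every group. With the block 21.1%, 21.9%, 35.2% and 41.8% of all tested genes passed in these comparisons, in the same order. Off chromosome 19, 3.57% of all tested genes were lower in SH and 3.66% in SH_E2. Shares of all genes under the other alternatives are not given. Fewer libraries enter the fits that leave some out; the cause of the other shifts was not tested. The E2 and antiestrogen counts were 0 under every alternative run. Of 2948 values of named genes under alternatives, 2669 kept their side of the threshold, 264 lost the call and 15 gained it; 0 called values changed sign, and 48 values called in neither fit did. The 3 libraries a group and a median SE of 0.14 for the 48 genes in SH against NC (0.21 over all tested genes) limit what can be detected.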
